A study of Mus musculus with 847 samples.

Results

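The clustered protocadherins are cell surface proteins encoded by neighbouring genes in 3 clusters, named alpha, beta and gamma. Members were taken as every gene of the deposited count table whose symbol starts with Pcdha, Pcdhb or Pcdhg, which gave 55 of 21076 genes: 12 alpha, 22 beta and 21 gamma members. All lie on the plus strand of mouse chromosome 18, the alpha members at 36930184 to 37187661, the beta members at 37264938 to 37524479 and the gamma members at 37661793 to 37841873 (GENCODE vM21 on GRCm38). They were measured by bulk RNA-seq in 59 C57BL/6JN mice, 25 female and 34 male, with 15 brain regions taken from the same animals and 51 to 59 libraries per region. The labels give no treatment and no engineered allele for any mouse. There were 5 females and 5 males at each of 3, 12, 15 and 18 months, 5 females and 6 males at 21 months, 5 males at 26 months and 3 males at 28 months. Effects of age beyond 21 months were therefore seen in males alone.

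Each neuron displays a combination of clustered protocadherins on its surface, and like combinations bind each other across cells. This homophilic recognition is known for letting branches of the same neuron avoid each other and for shaping arbors, synapses and neuronal survival. Each alpha or gamma messenger RNA joins 1 variable exon, which encodes the extracellular, transmembrane and proximal cytoplasmic part, to constant exons shared by the whole cluster, whereas each beta member is a gene with a single large exon of its own and no shared constant region. Promoters of the members are chosen cell by cell with the help of the looping factors CTCF and cohesin and of DNA methylation, while the C-type members Pcdhac1, Pcdhac2, Pcdhgc3, Pcdhgc4 and Pcdhgc5 are used more broadly and less at random. In bulk tissue, a change in the number of cells that use a member and a change in its RNA per cell cannot be told apart.

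Most alpha members, and most gamma members, had similar counts within a library. In each library the lowest alpha member held between 85.8% and 95.72% of the mean alpha member's count, with a median of 90.93%, and the lowest gamma member held between 93.6% and 97.35% of the mean gamma member's, with a median of 95.36%. In the annotation, 2860 exonic bases belong to all alpha members and 2116 to all gamma members. How the authors treated reads that fall in several members is not given in the sources used here. The deposited rows are read here as repeating the same constant-exon reads, so that 12 alpha or 21 gamma rows that move together are not separate measurements. In addition to the deposited rows, each of these clusters was read in 2 pieces: the common reads, which are the count of the cluster's lowest member in that library, and each member's excess over it. The excess is 0 by construction for the lowest member, most often Pcdha1 (507 libraries) and Pcdhga1 (679 libraries), so these members' excess is not described. Beta members share little sequence: a median of 1.23% of a beta member's 75-base stretches occurs elsewhere among the members' transcripts, the highest share being 8.96%, against medians of 56.3% for alpha and 43.9% for gamma. The exons of Pcdhb21 and Pcdhb22 overlap by 455 bases, and Pcdhb12 overlaps 1927 bases of Gm37446 on the opposite strand, which an unstranded library cannot separate.

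Library totals ran from 481444 to 26756735 counted reads with a median of 6716032, and 10 libraries held under 1000000. At 3 months, libraries labelled choroid plexus summed to 1895 to 6833 counts per 1000000 reads of the library (CPM) over 7 markers of choroid plexus epithelium and to 8148 to 9266 CPM over 14 neuronal markers, so they held neuronal RNA as well. In corpus callosum, the labelled white matter tract, 8 markers of mature oligodendrocytes summed to a median of 21540 CPM, against 1069 CPM in entorhinal cortex. Libraries of 3 mice stood apart from their region's others in 1 region each (mouse 52 in entorhinal cortex, mouse 3 in subventricular zone and mouse 38 in posterior hippocampus). Without them and without the shallow libraries, 172 member-region pairs of the beta cluster rose with age in place of the 174 given below. The mouse numbers followed age: the 12-month and 26-month mice were numbered 1 to 15, the 3, 15, 18 and 21-month mice 16 to 56 and the 28-month mice 57 to 59, and whether these blocks were handled together is not given in the labels. The 12, 26 and 28-month mice thus share no block with the 3-month mice, and in their differences from 3 months block and age cannot be told apart. The numbers followed sex as well: at 3, 15, 18 and 21 months all males were numbered 16 to 36 and all females 37 to 56. In the sex differences at these ages, sex and number cannot be told apart. Only at 12 months were the sexes mixed, with females numbered 1 to 13 and males 3 to 15.

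The 3 clusters differed in the regions where they were high. Alpha and gamma are given here as common reads alone and beta as the sum of its members, so their levels are not of 1 kind. The excess left out held a median of 54.5% of the reads of the alpha cluster and 50.5% of those of the gamma cluster. Over all libraries the common gamma reads averaged 244.9 CPM and the common alpha reads 64.03 CPM. The common gamma reads had their highest regional median in cerebellum (332.0 CPM), caudate putamen (308.7) and olfactory bulb (302.9), and their lowest in pons (149.4) and medulla (138.5). The common alpha reads followed another order, highest in motor cortex (89.05 CPM) and visual cortex (86.51) and lowest in the subventricular zone (48.61). The summed beta reads were highest in olfactory bulb (291.1 CPM), caudate putamen (233.7) and anterior hippocampus (226.5) and lowest in choroid plexus (151.8) and medulla (141.7). Pons and medulla were therefore lowest for gamma, and they were low in the other clusters too. They ranked 13 and 15 of 15 for beta and 12 and 13 for alpha. Motor and visual cortex led for alpha and stood mid-range for gamma and beta.

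**Figure D1:**
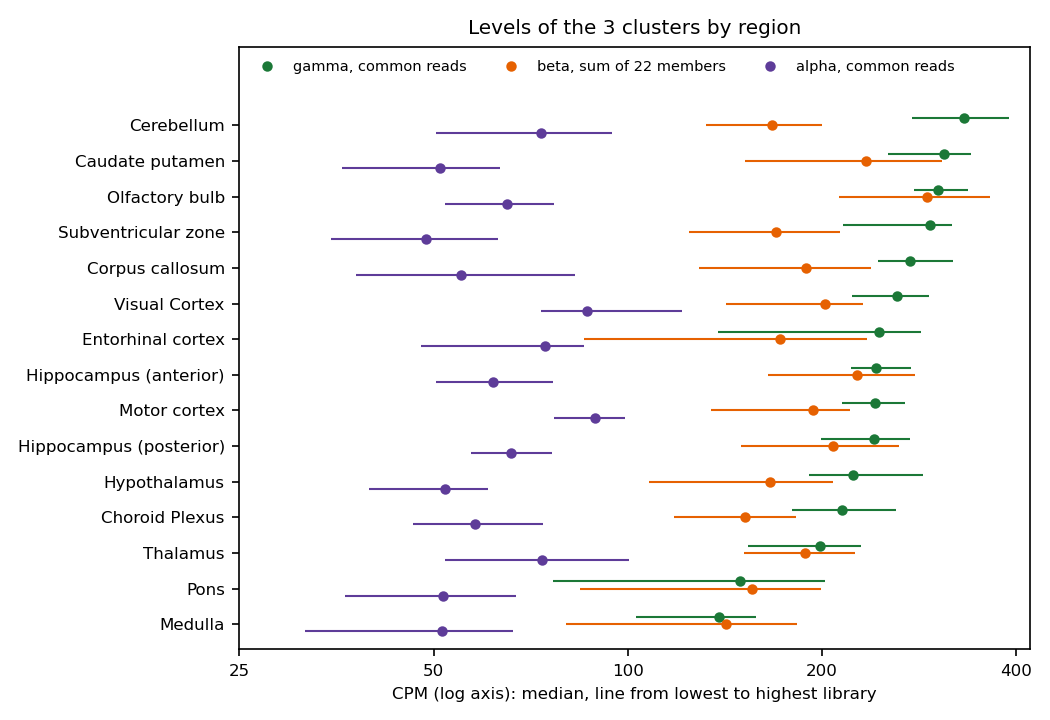
Level of each cluster in the 15 regions as CPM on a log axis; points are medians over all libraries of the region and lines run from the lowest to the highest library. Gamma common reads (green) run from a median of 138.5 CPM in medulla to 332.0 in cerebellum, beta sums (orange) from 141.7 in medulla to 291.1 in olfactory bulb, and alpha common reads (purple) from 48.61 in the subventricular zone to 89.05 in motor cortex. Common reads leave out the excess of the members, so the alpha and gamma heights are not comparable with the beta sums.

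Each region was set against the mean of the other 14 at the mean age with edgeR's quasi-likelihood test and Benjamini-Hochberg adjustment over 15069 genes, 84.7% of which passed per contrast. The fit had no term for the mouse, so libraries of the same mouse counted as independent. Among the deposited rows, 72 of 180 alpha pairs of member and region were higher and 86 lower, 116 of 315 beta pairs were higher and 142 lower, and 156 of 315 gamma pairs were higher and 110 lower. Shares of this size are near those of all genes, 41.7% higher and 43% lower. The direction was shared by whole clusters, which the common reads impose for alpha and gamma. All 21 gamma members were lower in medulla (median log2 difference -0.75, where 45.1% of all genes were lower) and in pons (-0.65, 43%). In both regions all 12 alpha members were lower too. Of the 21 beta members, 15 were lower and 6 higher in medulla, and 12 lower and 1 higher in pons. All 12 alpha members were higher in motor cortex (0.59, where 37.5% of all genes were higher) and in visual cortex (0.51, 38.2%). Beta members have no constant exon to tie them, and 20 of the 21 tested were higher in olfactory bulb (median 0.64, 43.5% of all genes) and 19 lower in choroid plexus (-0.24, 38% of all genes).

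**Figure D2:**
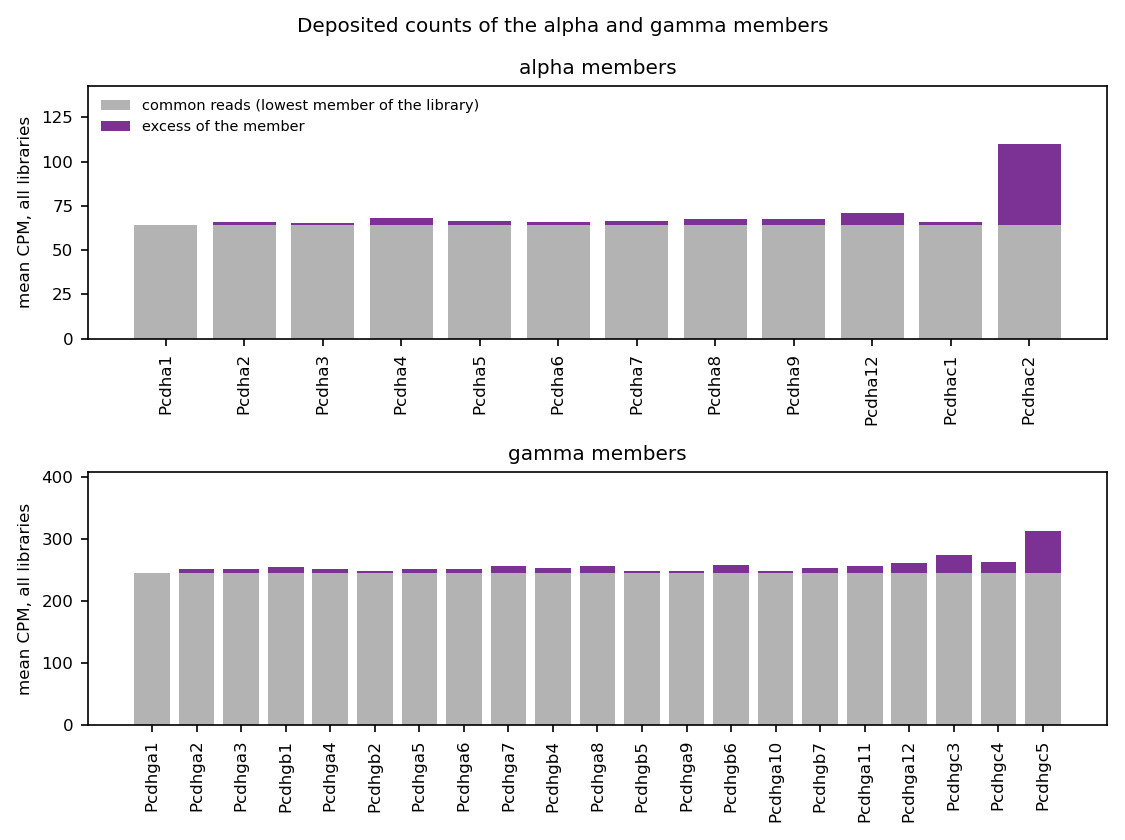
Mean CPM over all libraries of each alpha member (top) and each gamma member (bottom), split into the common reads of its cluster (grey) and the member's excess (purple). The grey part is 64.03 CPM for alpha and 244.9 for gamma in every bar, and the C-type members Pcdhac2 (mean excess 45.8 CPM) and Pcdhgc5 (68.64 CPM) stand farthest above it.

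Beyond the common reads, the 4 largest mean excesses belonged to C-type members. Pcdhac2 had a mean excess of 45.8 CPM, or 15.13 CPM per kilobase of its own exons, Pcdhgc5 of 68.64 CPM (12.46 per kilobase), Pcdhgc3 of 29.16 CPM (8.63) and Pcdhgc4, known to be needed for the survival of neurons, of 17.91 CPM (5.15). Pcdhac1, also of the C-type, reached only 2.04 CPM (0.80 per kilobase). Among the alternate members, which are those chosen stochastically, the largest excess per kilobase was 5.25 for Pcdhgb6 in gamma and 2.73 for Pcdha12 in alpha. By excess per kilobase, Pcdhac2 thus stood highest of the alpha and gamma members and Pcdhac1 near the bottom.

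The C-type members of the gamma cluster occupied different regions. Pcdhgc5 excess was 129.3 CPM at the median of visual cortex (lowest library 94.8, highest 177.4) and 120.5 CPM in motor cortex (93.4 to 151.0), but 6.25 CPM in pons (3.53 to 11.4) and 4.72 CPM in medulla (1.74 to 9.32). The cortical libraries and the hindbrain libraries did not come near each other; against the mean of the other regions the log2 contrast of the excess was 1.57 in visual cortex and -3.46 in medulla. Pcdhgc3 was highest in cerebellum, with a median of 72.5 CPM (46.9 to 97.6) against 17.6 in motor cortex and 16.6 in medulla (log2 contrast of cerebellum 1.49). Pcdhgc4 was highest in hypothalamus at 36.6 CPM, followed by cerebellum at 30.7 and olfactory bulb at 30.6, and lowest in caudate putamen at 9.47. Pcdhac2, in the alpha cluster, ranged less, from 63.0 CPM in visual cortex to 29.7 in olfactory bulb. In the deposited rows, Pcdhgc5 and Pcdhga12 in medulla (log2 contrasts of -1.05 ± 0.018 SE and -0.76) and Pcdhb6 in caudate putamen (1.67 ± 0.033 SE) had the smallest p of all members.

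Beta members stood at a few CPM each per kilobase of exon, and their order changed with the region. Pcdhb9 had the highest mean, 21.06 CPM or 6.89 CPM per kilobase, and the highest median per kilobase among beta members in 14 of 15 regions. The exception was caudate putamen, where Pcdhb6 (7.96 CPM per kilobase), Pcdhb8 (6.98) and Pcdhb20 (6.03) led. Pcdhb6 had a median of 29.86 CPM in caudate putamen (12.47 to 48.46) and 5.74 CPM in entorhinal cortex, and Pcdhb8 one of 24.31 CPM in caudate putamen and 4.67 CPM in choroid plexus. At the other end, Pcdhb1, which begins the cluster, averaged 0.327 CPM and had no read in 359 libraries.

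With age, the beta members rose across the brain. The slope of log2 level per month was fitted in each region over all its libraries with sex as a covariate (edgeR quasi-likelihood, Benjamini-Hochberg over all genes tested in the region, threshold 0.05). Of 317 beta pairs of member and region, 174 rose and 3 fell, where 6.39% of all genes rose and 5.07% fell. The median beta slope was 0.017 log2 per month, positive in 272 pairs, while the median over all genes lay between -0.00062 and 0.00057 in every region. Pairs from different regions come from the same mice and are not independent. Members rose in all 15 regions. The most rose in anterior hippocampus, with 15 of 21 against 6.89% of all genes, in medulla with 15 (6.55%), in olfactory bulb with 15 (7.79%) and in pons with 15 (4.62%). In caudate putamen 12 rose (7.68%), in posterior hippocampus 12 (4.33%), in hypothalamus 12 of 22 (4.13%), in motor cortex 12 (8.62%), and in corpus callosum 11 (9.53%) and visual cortex 11 (5.8%). The fewest rose in choroid plexus with 10 (11.5%), the subventricular zone with 10 (4.85%), cerebellum with 9 (10.7%), thalamus with 8 (2.88%) and entorhinal cortex with 7 of 22 (0.186%). In anterior hippocampus, 5 of the 6 choroid plexus epithelium genes tested and 4 of 8 mature oligodendrocyte genes rose as well. The choroid plexus list summed to 11.17 to 38.28 CPM there at 3 months, 19.25 to 2232 CPM at 21 months (median 27.7) and 24.17 to 27.75 CPM at 28 months, and its part in the count of beta members was not tested. The median beta slope was largest in pons (0.032), medulla (0.027) and caudate putamen (0.025), 0.020 in corpus callosum, and smallest in cerebellum (0.0076). The mice numbered 16 to 56 gave 141 rising pairs and the 12-month and 26-month mice alone gave 10. The shares of all genes above are from the fit of all mice, and none is given here for either subset. Whether these counts exceed the share of all genes in the same mice is therefore not shown. In the 12-month and 26-month mice alone, the slopes of Pcdhb6, Pcdhb8, Pcdhb9 and Pcdhb14 were positive in 15 of 15 regions. Their means there were 0.039, 0.039, 0.027 and 0.023 log2 per month. These 4 members were picked from the fit of all mice, which holds these same mice, so their signs here are not a separate test.

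**Figure D3:**
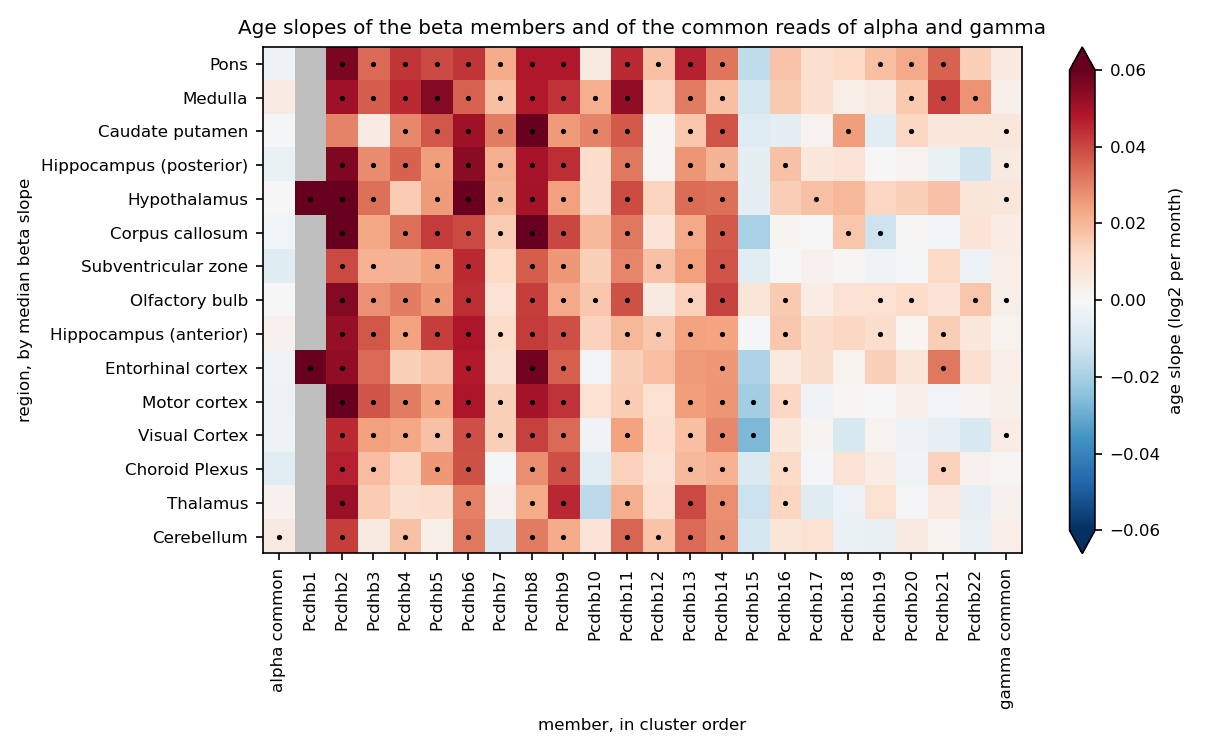
Age slope in log2 per month (color; red higher with age, blue lower) of each beta member in cluster order and of the common alpha and gamma reads, by region from the largest median beta slope (top) to the smallest; dots mark an adjusted p under 0.05 and grey marks members not tested. Pcdhb6, Pcdhb8, Pcdhb9 and Pcdhb14 carry a dot in all 15 regions, while Pcdhb15 is blue in most, with dots in motor and visual cortex.

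Pcdhb6, Pcdhb8, Pcdhb9 and Pcdhb14 rose in all 15 regions. In pons, Pcdhb9 measured 9.274 CPM in the lowest, 11.52 in the median and 12.70 in the highest of 9 libraries at 3 months, and 19.55, 23.70 and 24.07 in the 3 libraries at 28 months. The 28-month libraries all lay above the 3-month ones; the slope was 0.048 log2 per month (SE 0.0049, edgeR adjusted p = 3.4e-11). Its median in pons was 11.52, 17.51, 19.67, 21.83, 22.36, 23.34 and 23.70 CPM from the youngest to the oldest of the 7 ages. In corpus callosum Pcdhb9 went from 8.386, 11.28 and 12.78 CPM (lowest, median and highest of 10 libraries) to 18.36, 18.62 and 21.54 CPM, again without overlap, and in cerebellum from 11.86, 13.46 and 15.59 to 18.27, 20.88 and 21.86. The slopes there were 0.040 (adjusted p = 2.9e-09) and 0.022 (SE 0.0035, adjusted p = 1.2e-06), the latter being the smallest Pcdhb9 slope of any region.

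Pcdhb8 gave the steepest single rise of these 4 members, in caudate putamen. There it measured 4.822, 10.90 and 15.51 CPM (lowest, median, highest) at 3 months, 9.124, 31.94 and 54.06 CPM at 21 months and 24.70, 36.56 and 39.19 CPM at 28 months, so that the 28-month but not the 21-month libraries cleared all 3-month ones (slope 0.083, SE 0.0075, adjusted p = 9.4e-13). Its rise was smaller in pons, from 3.846, 5.262 and 7.648 to 8.845, 12.38 and 13.80 CPM (slope 0.048, adjusted p = 4.7e-07). In corpus callosum 3.407, 6.845 and 10.81 became 9.695, 17.09 and 20.94 CPM (slope 0.064, adjusted p = 6.1e-08) and in cerebellum 3.351, 6.603 and 9.994 became 8.699, 9.664 and 11.17 CPM (slope 0.031, adjusted p = 0.000193). In these last 2 regions the ages overlapped, and the plot of Pcdhb8 by age shows a wide scatter of libraries in corpus callosum at every age from 12 months on.

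**Figure D4:**
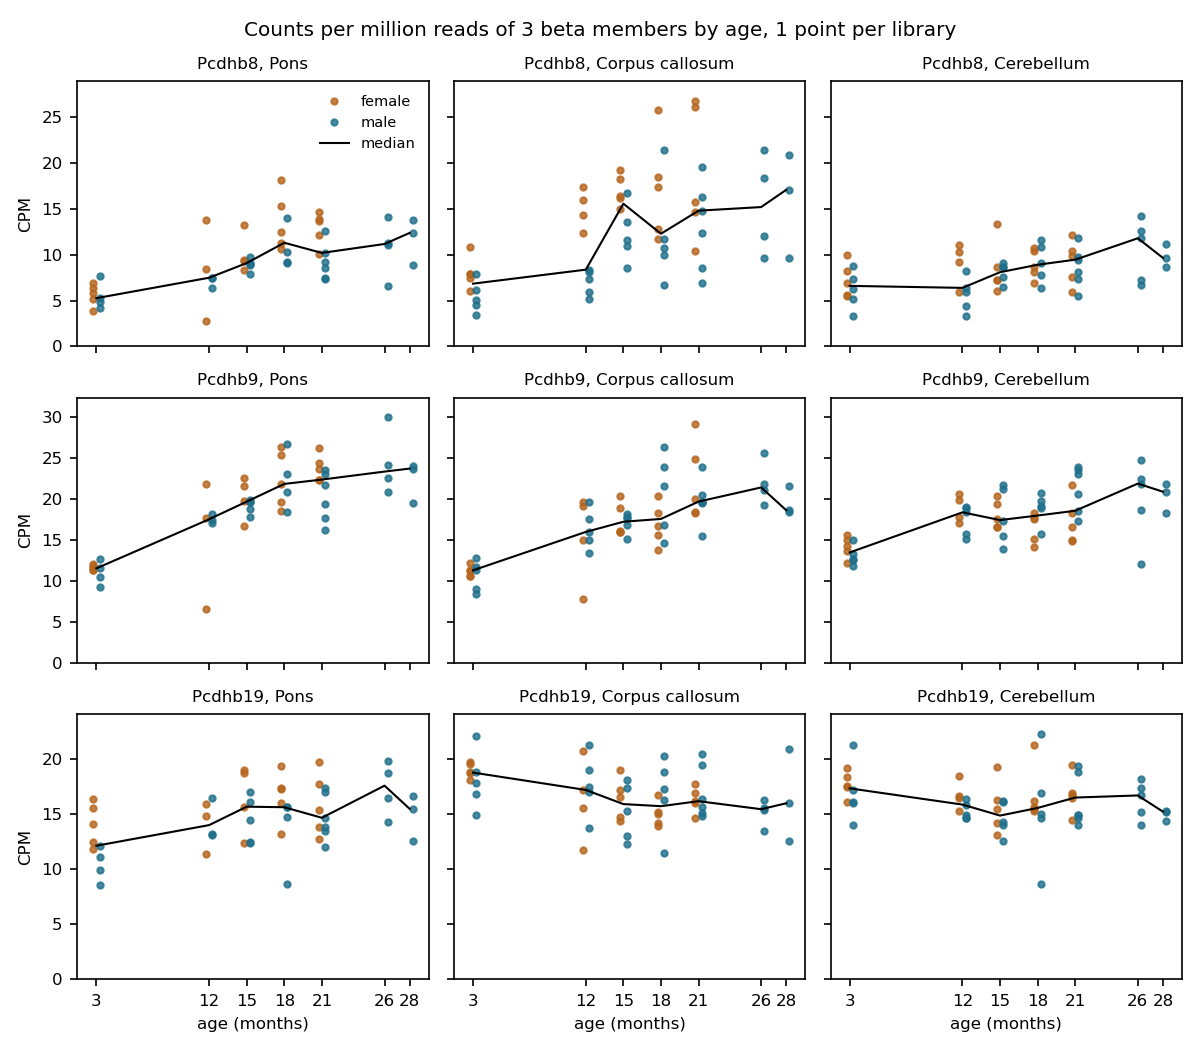
CPM of Pcdhb8, Pcdhb9 and Pcdhb19 (rows) in pons, corpus callosum and cerebellum (columns) against age in months; each point is a library, orange for females and blue for males, and the line joins the medians. Pcdhb9 climbs from a median of 11.52 CPM at 3 months to 23.70 at 28 months in pons, whereas Pcdhb19 in corpus callosum goes from 18.77 to 15.98.

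The rise of Pcdhb14 was steepest in olfactory bulb, from 11.30, 13.87 and 15.88 CPM at 3 months to 20.85, 24.30 and 28.76 at 21 months and 24.76, 26.48 and 28.34 at 28 months. Both older groups lay wholly above the young one (slope 0.041, SE 0.0032, adjusted p = 1.5e-15). Pcdhb6 rose most in hypothalamus, from 5.003, 6.407 and 10.12 CPM to 11.14, 15.71 and 22.51 at 21 months and to 18.36 and 18.98 in the 2 libraries at 28 months (slope 0.060, SE 0.0066, adjusted p = 2.2e-09). Pcdhb2 had the largest mean slope of the members tested in all regions, 0.051 log2 per month, at a low level: in motor cortex it went from 0.887, 1.505 and 2.259 CPM to 2.800, 3.536 and 5.638, without overlap (slope 0.063, SE 0.0068, adjusted p = 1.3e-10). It rose in 14 regions, the exception being caudate putamen (slope 0.030, adjusted p = 0.0633).

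Summed over the 22 members, the beta reads at 28 months lay above every 3-month library in 15 of 15 regions, and those at 21 months in 8 of 15. In medulla the sum was 80.11, 109.1 and 124.5 CPM at 3 months and 171.8, 177.5 and 182.7 at 28 months, and the ratio of these medians, 1.63, was the largest of any region. The smallest was 1.21, in visual cortex. Member by member, all 28-month libraries lay above all 3-month ones in 98 of 330 pairs and below in none, where 3.71% of all gene-region pairs lay above and 2% below. At 21 months, with up to 11 libraries a region, 27 of 330 beta pairs did so against 0.257% of all pairs, 11 of them for Pcdhb9 and 5 for Pcdhb14.

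The rise was spread over the life course. Against the 3-month libraries, which all 6 comparisons share, 38 of 317 beta pairs were higher at 12 months. In order of age the counts were 38, 64, 100, 136, 111 and 108, where the share of all gene-region pairs that were higher was 0.82%, 0.733%, 1.73%, 4%, 2.76% and 3.71%. The median log2 difference of the beta pairs was 0.13, 0.20, 0.27, 0.31, 0.39 and 0.43 in the same order. With males alone, in 316 pairs, the counts were 8, 26, 42, 71, 86 and 94. The shares of all genes above are from both sexes, and none is given here for males alone.

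Pcdhb9 was higher in 14 of 15 regions already at 12 months, with a mean log2 difference of 0.49, and in 15 at 28 months, with one of 0.85, both in mice of another number block than the 3-month ones. Within the block of the 3-month mice, Pcdhb9 was higher in 13 regions at 15 months (mean difference 0.60), in 14 at 18 months (0.66) and in 15 at 21 months (0.73). At 12 months Pcdhb9 was higher by 0.59 in pons (adjusted p = 0.0100), 0.58 in corpus callosum (adjusted p = 0.00446) and 0.44 in cerebellum (adjusted p = 0.000847), all by edgeR. At 28 months the differences of Pcdhb9 were 1.05, 0.81 and 0.55. Pcdhb8 was higher in 5 regions at 12 months and in 12 at 28 months, Pcdhb6 in 3 and then 14, Pcdhb14 in 4 and then 14, and Pcdhb2 in 6 and then 12. At 28 months the mean log2 differences were 1.24 for Pcdhb2, 1.15 for Pcdhb8, 1.07 for Pcdhb6 and 0.76 for Pcdhb14.

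The 22 beta members did not move as a block. After Pcdhb6, Pcdhb8, Pcdhb9 and Pcdhb14, Pcdhb2 and Pcdhb13 rose in 14 regions, Pcdhb11 in 13, Pcdhb5 in 12, Pcdhb3 and Pcdhb4 in 10 and Pcdhb7 in 9. Pcdhb16 rose in 6 regions, Pcdhb21 in 5, Pcdhb12 and Pcdhb20 in 4, Pcdhb10 and Pcdhb19 in 3, Pcdhb18 and Pcdhb22 in 2 and Pcdhb17 in 1. The slope of Pcdhb15 was negative in 14 of 15 regions. Pcdhb1 passed the filter on low counts in 2 regions and rose in both, entorhinal cortex (adjusted p = 0.0197) and hypothalamus (slope 0.071, adjusted p = 0.000721). In hypothalamus it read 0, 0.414 and 1.42 CPM at 3 months (lowest, median and highest library) and 2.479 and 4.648 CPM in the 2 libraries at 28 months, values near its limit of detection. The filter grouped libraries by age and sex, so a scarce member can pass on its older libraries alone. In mice of 3 to 21 months Pcdhb1 passed in hypothalamus alone. Its 2 rises, counted among the rising beta pairs, are therefore not used as support.

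Position along the cluster went with the rise. By a split made after the values were seen, and so given with no test, the 8 members from Pcdhb2 to Pcdhb9 rose in 100 of 120 pairs, each in at least 9 regions, and the 8 from Pcdhb15 to Pcdhb22 in 23 of 120, none in more than 6. The members between, Pcdhb10 to Pcdhb14, were left out of this split and followed no such order, rising in 3, 13, 4, 14 and 15 regions. Spearman's rho across the 21 members tested in all regions was -0.714 between mean slope and order along the cluster, 0.0273 between mean slope and mean CPM, and -0.0974 between mean slope and the share of 75-base stretches found elsewhere. Members are not independent points, and these coefficients are descriptions.

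The 3 falling pairs, named here because they are few, were Pcdhb15 in motor cortex (slope -0.021, adjusted p = 0.0362) and visual cortex (-0.027, adjusted p = 0.0149) and Pcdhb19 in corpus callosum (-0.012, adjusted p = 0.0163). Pcdhb15 in visual cortex measured 1.215, 3.320 and 4.375 CPM at 3 months and 1.191, 2.162 and 2.819 at 28 months. Pcdhb19 in corpus callosum measured 14.95, 18.77 and 22.13 CPM and then 12.52, 15.98 and 20.92. The ages overlapped in both, and with males alone none of the 3 passed.

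The gamma cluster rose as well, by far less. Of 315 gamma pairs, 119 rose by edgeR, with a median slope of 0.0041 log2 per month and 310 positive slopes, where 6.39% of all gene-region pairs rose. None fell by edgeR or by DESeq2 (0 at an unadjusted p under 0.05 by either), and DESeq2 called 148 rises. Rises were counted in caudate putamen (20 of 21 members, against 7.68% of all genes), olfactory bulb (20, 7.79%), hypothalamus (19, 4.13%), visual cortex (19, 5.8%), posterior hippocampus (15, 4.33%), cerebellum (13, 10.7%), motor cortex (11, 8.62%) and corpus callosum (2, 9.53%). Pcdhga7, Pcdhga2 and Pcdhga8 rose in 7 regions each, with the largest mean slopes of the cluster, 0.0048, 0.0045 and 0.0045. Pcdhgb1, Pcdhga4, Pcdhga6, Pcdhgb4, Pcdhga9, Pcdhgb6 and Pcdhgb7 rose in 7 regions too. Common reads made up 95.4% of the mean level of Pcdhga7, 97.6% of that of Pcdhga2 and 95.5% of that of Pcdhga8, so these rows do not show rises of single members. Without 3-month male mouse 17 the count of rising gamma pairs was 72. As 1 row, the common gamma reads rose in 5 regions: caudate putamen (slope 0.0066, adjusted p = 0.00606), posterior hippocampus (0.0055, adjusted p = 0.0413), hypothalamus (0.0069, adjusted p = 0.0173), olfactory bulb (0.0037, adjusted p = 0.00549) and visual cortex (0.0046, adjusted p = 0.0349). In olfactory bulb they went from 282.1, 297.4 and 307.0 CPM at 3 months to 309.1, 326.6 and 336.1 at 28 months, which did not overlap.

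The alpha cluster showed no common direction. Of 180 alpha pairs 9 rose and 9 fell, shares near those of all gene-region pairs (6.39% and 5.07%). The rises were all in cerebellum, where 10.7% of all genes rose, and 7 of the falls were in motor cortex, where 8.62% of all genes fell. The median slope was -0.0022 and 57 slopes were positive. The largest rise was that of Pcdha8 in cerebellum (0.0092, adjusted p = 0.00080). Pcdhac2 fell in motor cortex (-0.0052, adjusted p = 0.000859), posterior hippocampus (-0.0058, adjusted p = 0.0324) and visual cortex (-0.0054, adjusted p = 0.0173), and Pcdhac1 in motor cortex (-0.0044, adjusted p = 0.0320). The common alpha reads passed only in cerebellum, from 61.6, 70.54 and 79.97 CPM at 3 months to 77.09, 80.25 and 83.94 at 28 months (slope 0.0056, adjusted p = 0.0495), with overlapping ages. These counts rested on few mice of the 6 left out in turn: 4 alpha pairs rose without mouse 17 and 5 without mouse 37 or 57, and 4 fell without mouse 58 and 5 without mouse 59.

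**Figure D5:**
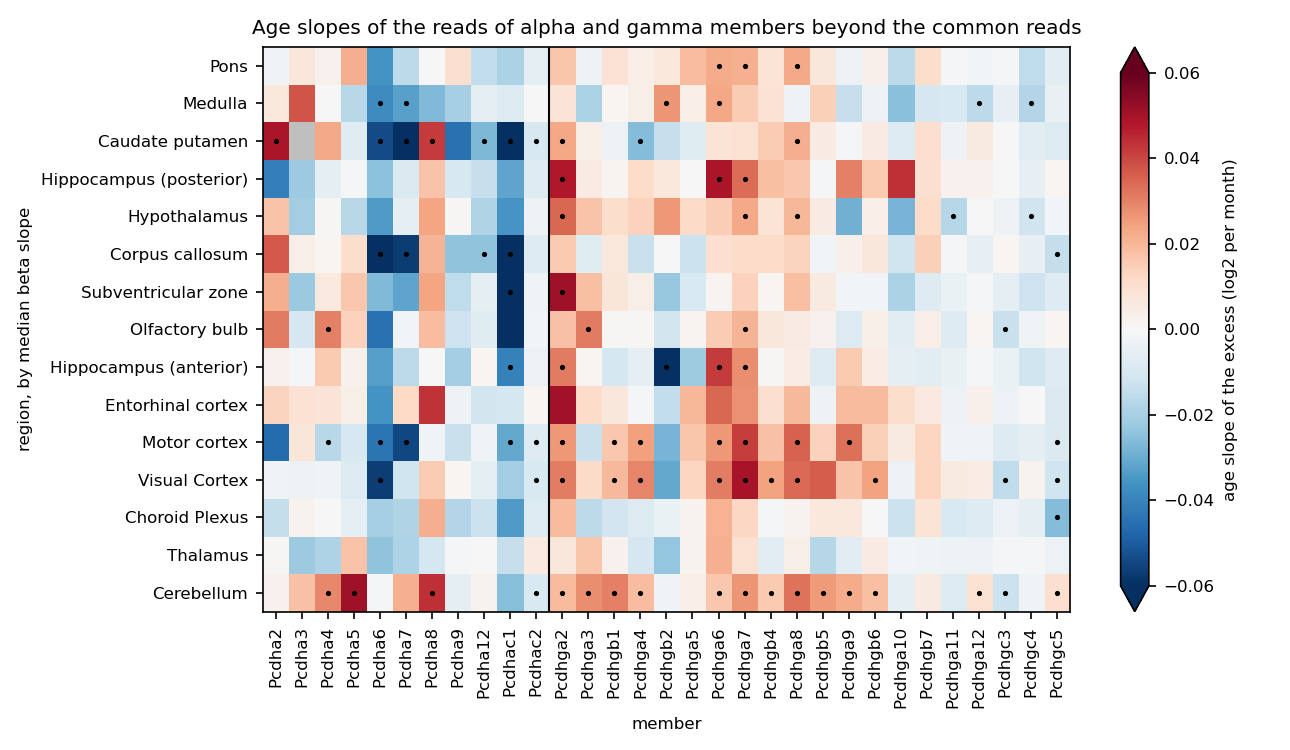
Age slope in log2 per month of the excess of each alpha member (left of the line) and gamma member (right) over its cluster's common reads, by region from the largest median beta slope (top); dots mark an adjusted p under 0.05 and grey a member not tested. Pcdhga2, Pcdhga6, Pcdhga7 and Pcdhga8 are red in most regions, Pcdha6 and Pcdhac1 blue, and Pcdhgc5 carries 4 blue dots and 1 red one.

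Once the common reads were set aside, members of the same cluster had slopes of either sign. This split was chosen after the data were seen, and the alternate members named here are named from its values. Of 300 gamma excess pairs 47 rose and 13 fell, and of 164 alpha pairs 6 rose and 21 fell, where 6.37% of all rows rose and 5.05% fell. Pcdhga2 and Pcdhga7 rose in 8 regions, Pcdhga6 in 7 and Pcdhga8 in 6. A few alternate gamma members had mostly negative slopes: those of Pcdhga11 were negative in 13 of 15 regions, of Pcdhga10 in 12 and of Pcdhgb2 in 10, with 1, 0 and 1 regions past the threshold as falls. The slopes of Pcdhga12 were negative in 8 regions and positive in 7. The remaining alternate gamma members had mostly positive slopes, such as Pcdhgb4 and Pcdhgb6 in 13 regions each and Pcdhgb1 in 12. Among alternate alpha members, Pcdha6 fell in 5 regions, Pcdha7 in 4, Pcdha12 in 2 and Pcdha4 in 1. Pcdha4 and Pcdha8 rose in 2 regions each, and Pcdha2 and Pcdha5 in 1 each. Whether alternate and C-type members differed was not tested. Pcdhga7 excess in visual cortex went from 3.143, 4.821 and 6.290 CPM at 3 months to 7.745, 10.65 and 12.77 at 28 months, without overlap (slope 0.050, adjusted p = 1.7e-06). In motor cortex it went from 1.172, 5.509 and 7.978 to 10.53, 10.96 and 11.51, again without overlap (slope 0.042, adjusted p = 2.2e-07). Such a separation at 28 months was seen for Pcdhga7 excess in 5 of 15 regions. Of 495 excess pairs, with Pcdha1 and Pcdhga1 counted, 22 lay wholly above the 3-month libraries and 12 wholly below. These shares are near those given above for all gene-region pairs. Pcdhga8 excess in cerebellum went from 10.41, 11.71 and 15.67 to 15.24, 23.71 and 26.57 CPM, where the lowest old library lay just under the highest young one (slope 0.033, adjusted p = 2.5e-09).

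The excess of C-type members fell where it moved, except for Pcdhgc5 in cerebellum. Pcdhgc5 excess fell in choroid plexus (slope -0.026), corpus callosum (-0.014), motor cortex (-0.0087) and visual cortex (-0.012, adjusted p = 0.000652) and rose in cerebellum (0.0099). In visual cortex, where it is most abundant, it went from 127.7, 135.6 and 177.4 CPM at 3 months to 94.81, 107.8 and 111.5 at 28 months, with every old library below every young one. Pcdhgc5 excess lay wholly below in this 1 of 15 regions, and such separations were about as frequent among all genes. Pcdhgc3 excess fell in cerebellum, olfactory bulb and visual cortex, in the last from 20.34, 24.32 and 29.44 to 15.49, 17.60 and 22.28 CPM. Pcdhgc4 excess fell in 2 regions, Pcdhac2 in 4 and Pcdhac1 in 5. Pcdhac2 excess in motor cortex measured 58.91, 66.25 and 74.47 CPM at 3 months and 55.88, 59.49 and 65.08 at 28 months, which overlap. The excess of Pcdhac1 and Pcdha6 in corpus callosum was a few CPM at most. Pcdhac1 measured 1.581, 1.963 and 3.801 CPM at 3 months, 0, 0.142 and 0.339 at 26 months and 0.0992, 1.347 and 2.296 at 28 months (slope -0.089, adjusted p = 0.00028), so that the 26-month libraries lay below all young ones and the 28-month libraries overlapped them. Pcdha6 measured 1.559, 2.983 and 5.574 CPM at 3 months and 0.794, 1.275 and 2.558 at 28 months, which overlap (slope -0.086, adjusted p = 3.9e-06). An excess is a difference of 2 counts and carries the error of both.

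Whether slopes differed between regions was tested in a joint fit of all libraries, with an F test of the 14 differences between region slopes. This fit had no term for the mouse, so libraries of the same mouse counted as independent. Of 21 beta members tested, 13 differed, against 19.7% of all genes, and none of the 12 alpha and 21 gamma deposited rows did (0 and 1 at an unadjusted p under 0.05). With the mouse as a replicate block, 15 beta members differed, where 20.7% of all genes did; the 2 that were added were Pcdhb6 (adjusted p = 0.0273 with the block, 0.0629 without) and Pcdhb16 (0.0365 and 0.0554). Pcdhb21 had the smallest adjusted p (edgeR, 2.6e-15), followed by Pcdhb22 (1.9e-06) and Pcdhb9 (1.2e-05). Pcdhb21 rose in medulla, from 4.492, 6.036 and 8.225 CPM at 3 months to 11.99, 12.87 and 13.54 at 28 months, without overlap (slope 0.041, adjusted p = 3.9e-09). It also rose in pons (0.035, adjusted p = 2.8e-07), from 4.748, 5.445 and 7.049 to 7.475, 9.576 and 10.36 CPM. In motor cortex, by contrast, it measured 7.034, 8.645 and 10.32 and then 5.711, 7.956 and 9.985 CPM (slope -0.0018, adjusted p = 0.799). Pcdhb22, which shares 455 exonic bases with Pcdhb21, rose in medulla (0.027) and olfactory bulb (0.017) and had slopes of -0.0090 in visual cortex and -0.012 in posterior hippocampus that did not pass.

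Set against the mean slope of the other 14 regions, 10 beta slopes were higher and 5 lower, where 0.637% of all gene-region pairs were higher and 0.768% lower. These contrasts came from the joint fit without a mouse term and were not made with the mouse as a block. Medulla held 4 of the higher ones: Pcdhb21 (by 0.028), Pcdhb5 (0.025), Pcdhb22 (0.022) and Pcdhb11 (0.021). The others were Pcdhb8 (0.033) and Pcdhb10 (0.023) in caudate putamen, Pcdhb21 (0.023) and Pcdhb20 (0.017) in pons, Pcdhb21 in entorhinal cortex (0.021) and Pcdhb14 in olfactory bulb (0.015). The lower ones were Pcdhb10 in thalamus (-0.027), Pcdhb7 in cerebellum (-0.021), Pcdhb19 in corpus callosum (-0.016), Pcdhb14 in medulla (-0.015) and Pcdhb17 in thalamus (-0.015). Of the gamma rows, Pcdhgc5 in choroid plexus was lower (-0.0073). With common reads and excess as separate rows, 11 gamma and 4 alpha rows differed between regions by the F test, where 19.3% of all rows did, led by Pcdhga8 (adjusted p = 1.5e-05) and Pcdhga7 (2.8e-05).

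Levels were lower in males for some beta members. In mice of 3 to 21 months, the ages with both sexes, 27 of 316 beta pairs were lower in males (edgeR, age as a factor; also 27 by DESeq2), where 1.64% of all genes were lower and 1.38% higher. The median male minus female difference of the beta pairs was -0.11 on the log2 scale, and 250 were negative. None was higher by either tool, with 4 higher at an unadjusted p under 0.05 by edgeR and 3 by DESeq2. Medulla gave 12 of the 27 pairs, and there 24.6% of all genes differed between the sexes; the 12 alpha pairs lower in males and the 7 gamma pairs higher in males were all in medulla too. Of all genes, 2068 of 14422 were lower in males in medulla, and elsewhere at most 318 of 14374, in hypothalamus. Without medulla, 15 of 295 beta pairs were lower in males. The 1.64% above includes medulla, and the share of all genes without it is not given here. The mice numbered 16 to 56 gave 18 beta pairs lower in males, with no share of all genes given here. Among these mice all males had lower numbers than all females, so sex and number cannot be told apart. Within the 12-month mice alone, with up to 5 of each sex, none passed by edgeR, 33 were lower and 4 higher at an unadjusted p under 0.05, and 214 of 311 differences were negative (median -0.098).

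Pcdhb8 was lower in males in 5 regions, and Pcdhb6 and Pcdhb2 in 3 each. In corpus callosum at 12 months, Pcdhb8 measured 12.34, 14.31, 15.93 and 17.38 CPM in the 4 females and 5.164, 5.924, 7.349, 8.084 and 8.373 in the 5 males, so that the sexes did not overlap, whereas they overlapped at 3, 15, 18 and 21 months; over all 5 ages the difference was -0.62 (SE 0.12, adjusted p = 0.00251). Pcdhb6 in caudate putamen had medians of 32.77 CPM in females and 18.91 in males at 12 months, with overlapping ranges (22.06 to 36.06 and 16.6 to 29.88), and ranges of 29.41 to 40.34 and 21.67 to 27.75 at 15 months, which did not overlap; at 3, 18 and 21 months they did (difference -0.39, SE 0.069, adjusted p = 0.00083). The smallest adjusted p were those of Pcdhb14 in medulla (-0.34, SE 0.058, adjusted p = 4.9e-05) and Pcdhb2 in medulla (-0.58, adjusted p = 0.000115). The age slopes themselves were not found to differ between the sexes: no member passed by edgeR or DESeq2, where 0.0694% of all genes did by edgeR, and 20 of 316 beta, 35 of 315 gamma and 2 of 180 alpha pairs had an unadjusted p under 0.05. The smallest was that of Pcdhb9 in cerebellum (male minus female slope 0.022, SE 0.0084, adjusted p = 0.284).

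As a share of the variance of log2 CPM over all libraries, region took a median of 89.8% for gamma members, 76.6% for alpha and 48.6% for beta, and 69.5% for all genes. Age took a median of 3.84% for beta members, 0.775% for gamma, 0.0928% for alpha and 0.182% for all genes. For Pcdhb9 the share of age was 30.4%, at the 99.96th percentile of all genes tested, and it was 18.5% for Pcdhb14, 15.3% for Pcdhb8, 13.2% for Pcdhb2, 13.0% for Pcdhb11 and 12.4% for Pcdhb6.

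Genes that work beside the clustered protocadherins are read against the 6.39% of all gene-region pairs that rose and the 5.07% that fell. Of 11 nonclustered protocadherins tested, single genes elsewhere in the genome that encode related adhesion proteins, 2 of 165 pairs rose with age and 20 fell (median slope -0.0040). Pcdh7 rose in 1 region and fell in 4, and Pcdh18 fell in 3. Of 23 genes for promoter choice and looping, 5 of 340 pairs rose and 18 fell (median -0.0010). Dnmt3a, a de novo DNA methyltransferase, and Pds5b, a cohesin regulator, fell in 4 regions each, and Ctcf fell in 1. Of 18 signalling partners, kinases and cytoskeletal regulators downstream of the proteins, 15 of 270 pairs rose and 10 fell. Ptk2b rose in 3 regions, and Fyn fell in 6. The falls among the looping genes and the rises among the signalling partners were near the shares of all genes.

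Cell markers moved in the same libraries. Of the 9 microglial genes, 95 of 135 pairs rose and 2 fell (median 0.020), C1qa in 14 and C1qb in 13 regions. Their summed level in pons went from 383.3, 481.4 and 590.8 CPM at 3 months to 861.4, 917.8 and 975.0 at 28 months. By region, 7 to 9 of the 9 rose in 11 regions, 3 in motor cortex and in visual cortex, 1 in olfactory bulb and 0 in entorhinal cortex. The beta members that rose in these last 4 regions numbered 12, 11, 15 and 7. The median microglial slope was positive in all 4, at 0.0031, 0.00070, 0.0054 and 0.0098, and in entorhinal cortex only 0.186% of all genes rose. Between the youngest and oldest age, the median of the microglial sum moved from 433.5 to 451.3 CPM in motor cortex, from 438.8 to 436.9 in visual cortex, from 448.6 to 487.9 in olfactory bulb and from 447.8 to 512.8 in entorhinal cortex. With the microglial level added to the fit as a covariate, an alternative added after the data were seen, 137 of 317 beta pairs rose and 1 fell, Pcdhb9 and Pcdhb14 in 15 regions, Pcdhb6 and Pcdhb2 in 12 and Pcdhb8 in 9, where 6.53% of all genes rose and 6.42% fell. In that fit 58 alpha pairs rose and 2 fell, and 97 gamma pairs rose and 21 fell. The microglial level itself rose with age in most regions, and the part of microglia in the rise of the beta members was not tested.

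Of the other marker lists, neurons had 5 of 210 pairs rising and 24 falling (Stmn2 fell in 6 regions, Tubb3 in 4), and with the neuronal level as a covariate 184 beta, 107 gamma and 20 alpha pairs rose, against 7.23% of all genes. Astrocyte genes rose in 29 of 120 pairs and fell in 8 (Gfap rose in 12 regions, Sox9 in 7). Mature oligodendrocyte genes rose in 10 of 120 and fell in 5 (Cldn11 fell in 5, Mbp rose in 3), and precursor genes rose in 2 of 90 and fell in 18, of which Gpr17 made 15 and Vcan 2. Endothelium and pericytes had 4 of 120 rising and 3 falling (Pecam1 rose in 2), choroid plexus epithelium 8 of 87 and 3 (5 of the rises in anterior hippocampus; Clic6 rose in 3 regions and fell in 1, and Aqp1 rose in 1), and meningeal fibroblasts 2 of 90 and 10 (Col3a1 fell in 4, Col1a2 in 3). Between the sexes, 11 of 135 microglial pairs and 6 of 120 mature oligodendrocyte pairs were lower in males. The part of astrocytes and of the other glial lists in the rise of the beta members was not tested.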

How the data were processed

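RNA was extracted with RNeasy from homogenised tissue, converted to cDNA with Smart-Seq2 and made into unstranded Nextera XT libraries, per the labels' protocols. The authors deposited 1 table of raw read counts for 21076 genes; the submitters' processing notes name Trim Galore 0.3.7, STAR 2.5.3a, DESeq2 and the build GRCm38, and the counter and its treatment of reads in several genes are not given in the sources used here. Each region was fitted alone, and all regions together for differences between regions, with edgeR 4.0.16 (TMM factors, filterByExpr, glmQLFit and glmQLFTest without the legacy option, where dispersions from estimateDisp have no effect), Benjamini-Hochberg adjustment over all genes tested and a 2-sided threshold of 0.05. DESeq2 1.42.0 was an alternative. CPM is the count divided by the library total, times 1000000. Variance shares used log2 CPM with a prior count of 2, in the order region, age, sex and mouse.

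The results were also computed in males alone, in mice 1 to 15 and 16 to 56, with RLE factors, with a floor of 1 read as the filter, with depth or neuronal markers as covariates, with mouse as a block, and without shallow libraries (under 1000000 reads) or 1 of 6 mice. Added after the data were seen were common reads and excess as separate rows, the legacy fit and a microglial covariate. The main joint fits had terms for region, age within region and sex but none for the mouse, so libraries of the same mouse counted as independent. Only the alternative with mouse as a block pairs regions by animal, which the labels give for each library. The members and lists were chosen with earlier results of these data known. Genes named are, per cluster, the 3 members that passed with age in the most regions (with the gamma members tied with them), the most abundant member, the C-type members, the 3 smallest p of each other test, members falling in at least 3 regions and, per list, the 2 genes that passed in the most regions. Pcdha8, the alternate members named by their excess, Pcdhb1, Pcdhb15, Pcdhb19 and single members listed by region were chosen after their values were seen. The fits were tested on simulated counts with known changes. Promoter and protein sequences were not analysed here.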

Additional observations from a re-analysis of the deposited data

Results flagged for a closer look

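In the groups of 4 to 10 libraries examined for an outlying library (40 groups, of which chance would mark about 1 in 20), 4 beta values stood apart from their group. Pcdhb8 at 15 months had its highest library at 13.2 CPM among 9 in pons and at 13.33 CPM among 10 in cerebellum. In pons at 15 months the highest of 9 libraries for Pcdhb6 was at 11.51 CPM. The lowest of 6 pons libraries at 12 months measured 6.607 CPM of Pcdhb9.

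Age slopes differed between regions for the members with the smallest p by the joint F test. The adjusted p was 2.603e-15 for Pcdhb21, 1.941e-06 for Pcdhb22 and 1.24e-05 for Pcdhb9 (edgeR). The first pair share exonic bases, so that these are not fully separate measurements.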

How the results depend on the processing

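The 174 rising beta pairs stayed within 1.5 times that count under every alternative except mice 1 to 15 alone (10). With males alone the falling beta pairs numbered 0, the rising gamma pairs 63, the rising and falling alpha pairs 0 and 3, and the differences from 3 months 328 for beta (562 in all mice), 70 for gamma (162) and 14 for alpha (47). In mice 1 to 15 no beta pair fell, no gamma pair rose and 0 alpha pairs passed in either direction. Mice 16 to 56 gave 1 falling beta pair, 5 rising alpha pairs, 295, 95 and 6 differences from 3 months for beta, gamma and alpha, and 1 gamma sex difference (7 in all mice). The 12-month mice alone gave 0 sex differences for each cluster. With the microglial covariate, 1 beta pair fell, 21 gamma pairs fell and 58 alpha pairs rose and 2 fell, and with the neuronal covariate 1 gamma pair fell and 20 alpha pairs rose. Depth covariates left 4 rising and 4 falling alpha pairs. DESeq2 called 247 gamma differences from 3 months and 19 gamma sex differences, and no filter gave 106 and 2 of these, 29 alpha differences from 3 months and 5 falling alpha pairs. Counting each member's excess in place of its deposited row gave 21 falling alpha pairs, 48 rising (47 without Pcdhga1) and 13 falling gamma pairs, 2 alpha and 4 gamma sex differences, and 4 alpha and 11 gamma members with slopes that differed between regions. The cause of these shifts was not tested, beyond the fewer mice in the first 4 settings.

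Of the 59 mice, only mice 17, 37, 40, 57, 58 and 59 were left out, 1 at a time (not mouse 40 for the differences from 3 months, and mice 17, 37 and 40 alone for sex). This gave 165 to 174 rising and 2 to 4 falling beta pairs, 521 to 543 beta differences from 3 months and 26 to 27 beta sex differences. It gave 72 to 134 rising gamma pairs (72 without mouse 17), 127 to 158 gamma differences from 3 months, and 3 to 21 gamma sex differences (3, 18 and 21 without mice 17, 37 and 40). For alpha it gave 4 to 8 rising pairs, 4 to 10 falling pairs, 12 sex differences and 18 to 47 differences from 3 months (29, 18 and 22 without mice 57, 58 and 59). With the mouse as a replicate block, paired across regions by animal, 258 beta, 159 alpha and 266 gamma regional differences in level were called (258, 158 and 266 without it), and 15 beta, 0 alpha and 0 gamma slopes differed between regions (13, 0 and 0). At 0.327 CPM, Pcdhb1 was too shallow to test in 13 regions.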
